A study of Daphnia magna with 15 samples.

Results

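In a series of 15 RNA libraries from whole water fleas (Daphnia magna), 200 loci stood higher in all 6 cisplatin and control B libraries than in any of the 9 etoposide, imatinib and control A libraries. A locus here is a gene of the transcript assembly, and its level is the sum of the FPKM (fragments scaled by transcript length and library size) of its transcripts. Of 18877 loci in all, 17066 averaged 1 FPKM or more and spanned 500 bp or more, and the members were taken from these. Among them, 2024 (11.9%) had every cisplatin and control B library above every other library on the log2(FPKM + 1) scale, and the 200 with the largest difference between the means of both sides were kept. That contrast chose the members, so it is described here without a test. The cisplatin and control B libraries are called the high side, and the other 9 the low side.

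The animals were neonates of a laboratory strain, 48 to 72 h old, held unfed for 24 h in 25 mL of medium in lots of 20 to 25. The 3 cisplatin libraries (labelled Cisplatinum or CDDP) came from 10 ng/L, the 3 etoposide libraries from 300 ng/L and the 3 imatinib mesylate libraries from 2000 ng/L. Control B and control A, with 3 libraries each, were unexposed and have the same labels apart from the letter. Cisplatin crosslinks DNA, etoposide traps topoisomerase II on DNA, and imatinib inhibits tyrosine kinases. The labels do not say which control belongs to which drug, or whether replicates came from separate cultures, and p-values therefore rest on a spread that may be technical. They name 12 indices for the 15 libraries and give no date or run, so a batch and the library set cannot be told apart.

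Daphnia reproduces mostly without males, so a laboratory culture is close to a clone, and its young moult every few days. In the related species Daphnia pulex, many gene families lie as tandem copies beside each other in the genome. RNA was taken from whole animals, so a higher level can come from more cells of 1 type or from more RNA per cell, which cannot be told apart. The deposited table does not pair its loci with gene names, and 0 identifiers matched the 28335 genes of the reference table, so no role can be given for any locus and no pathway list could be applied. Loci are given by the table's own identifier and interval, and the genome build is not given in the sources used here.

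Depth is unknown, since FPKM carry no read counts. Steps between low values did not settle it: in control A 1, 26 of 321 low loci shared the commonest ratio to etoposide 2 and 23 the next. In control A 1, 1375 loci stood at 0, and in each of the other 14 libraries 71 to 289 did. The median of all tested loci was 3.87 to 3.97 on the log2(FPKM + 1) scale in the high-side libraries and 3.59 to 3.78 in the low-side libraries, so a small offset separated the sides over all loci. Without control A 1, 191 of the 200 members were chosen again. Leaving out a library cannot make the sides of a member overlap, so only the ranking could change.

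The members were well expressed on the high side, and on the low side their level varied by library. Their median level was 51.6, 38.7 and 44.9 FPKM in cisplatin 1, 2 and 3 and 43.6, 35.3 and 48.2 FPKM in control B 1, 2 and 3. On the low side it was 14.7, 7.12 and 4.30 FPKM in etoposide 1, 2 and 3, then 2.83, 6.22 and 1.59 FPKM in imatinib 1, 2 and 3, and 4.04, 10.4 and 9.0 FPKM in control A 1, 2 and 3. The 6 high-side medians lay close together, and the 9 low-side medians ranged widely, with etoposide 1 at the top and imatinib 3 at the bottom. The unexposed sets stood on opposite sides: the median of the group means was 43.1 FPKM in control B and 8.82 FPKM in control A, against 44.1 FPKM in cisplatin.

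**Figure D1:**
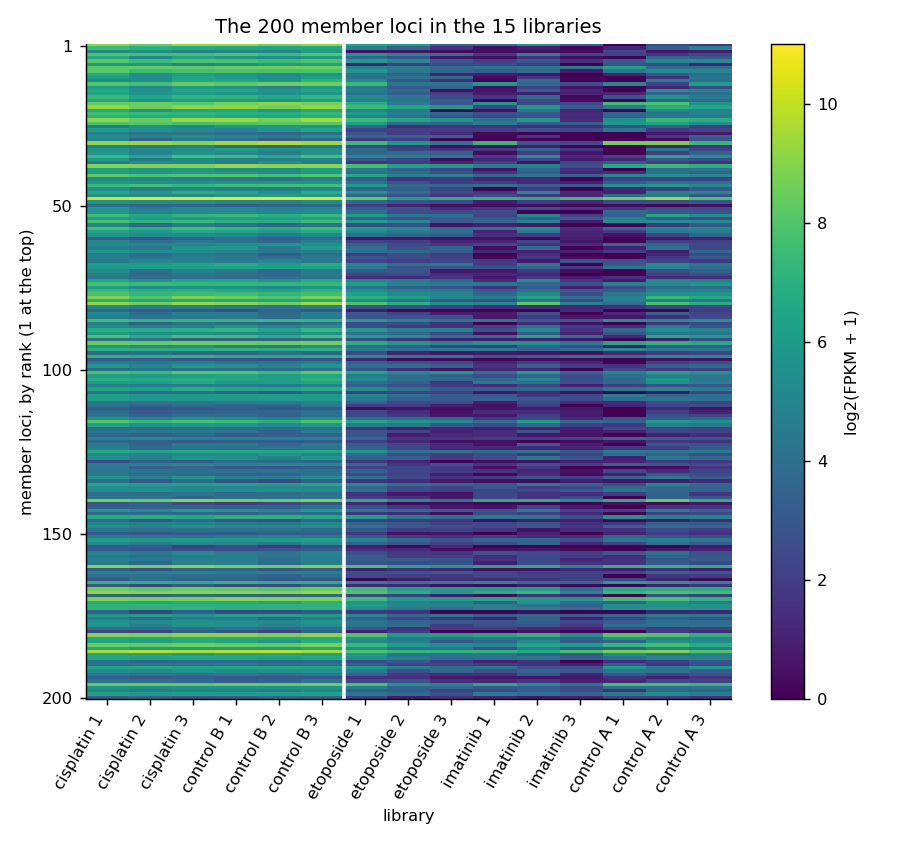
Levels of the 200 members (rows, by rank of the difference) in the 15 libraries (columns), as log2(FPKM + 1) in colour. The white line parts the 6 high-side libraries on the left from the 9 low-side libraries, and the rows are evenly bright on the left and uneven on the right, darkest in imatinib 3 and imatinib 1.

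The mean FPKM of a member was 2.82 to 43.9 times higher on the high side than on the low side, with a median of 5.58. It was at least 4 times higher for 173 members and at least 8 times higher for 36. On the log2(FPKM + 1) scale the difference had a median of 2.46 and ranged from 1.95 to 5.36, while the median over all 17066 eligible loci was 0.22. The gap between the lowest high-side and the highest low-side library had a median of 0.78, was at least 1 for 60 members and under 0.1 for 4. At the edge of the rule, the member of rank 200 differed by 1.95 with means of 9.44 FPKM on the high side and 1.83 FPKM on the low side, and the next locus outside it also by 1.95, with 29.0 and 7.51 FPKM.

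Many members fell under 1 FPKM in single low-side libraries. The count was 71 in imatinib 3, 64 in imatinib 1 and 58 in control A 1, and 9 each in etoposide 1 and control A 3. Of the 200, 0 had all 9 low-side libraries under 1 FPKM, and 49 were listed at 0 in 1 or more of them, 36 of these in control A 1 and 21 in imatinib 3. The mean of the low-side libraries alone reached 1 FPKM for 187 members, so 13 passed the filter on low values only through their high-side libraries.

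XLOC_005532 (scaffold01203, 5417 to 6063) had the largest difference of the means. It measured 579, 360 and 633 FPKM in cisplatin and 655, 426 and 601 FPKM in control B. The values were 81.4, 64.5 and 10.9 FPKM in etoposide, 14.1, 56.2 and 8.91 FPKM in imatinib, and 0, 4.45 and 2.29 FPKM in control A. The locus thus held 3 levels, the highest on the high side, intermediate levels with etoposide and imatinib, and the lowest in unexposed control A. XLOC_008572 (scaffold01591, 70072 to 72223) followed, with 182, 126 and 109 FPKM in cisplatin and 96.4, 85.7 and 100.3 FPKM in control B. It measured 29.4, 10.9 and 2.23 FPKM in etoposide, 0.366, 0.832 and 0.128 FPKM in imatinib, and 1.06, 9.72 and 30.0 FPKM in control A. Here the imatinib libraries were the lowest of all, and those of etoposide and control A overlapped.

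**Figure D2:**
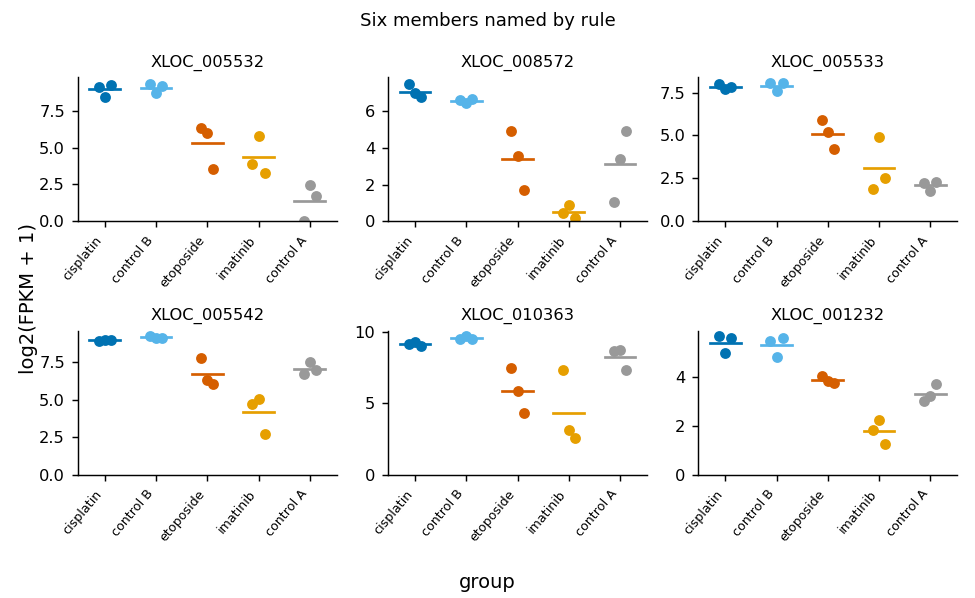
Levels of 6 members in every library (points, log2(FPKM + 1)) by group, with the mean of each group as a line (n = 3 each). Cisplatin and control B both lie above the other groups at each locus, while XLOC_005532 is lowest in control A and XLOC_008572, XLOC_005542 and XLOC_001232 are lowest in imatinib. The cisplatin libraries lie wholly above those of control B at XLOC_008572 and wholly below them at XLOC_005542 and XLOC_010363.

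Cisplatin and control B, both on the high side, gave a comparison that the rule did not use. Of the 200 members, 0 differed between cisplatin and control B (limma, smallest adjusted p = 1), as did 0% of the 18098 loci tested, and 1 member, higher in cisplatin, had an unadjusted p under 0.05 (0.5%), against 1.23% of all loci in either direction and 0.464% higher. The members' log2 differences had a median of 0.07 and ranged from -0.77 to 0.89, and over all tested loci the median was 0.01. The 3 cisplatin libraries lay wholly above those of control B for 7 members and wholly below for 13, together 10.0% of the members, against 4.11% and 4.07% of all loci and 8.17% together. For 21.5% of the members and 74.5% of all tested loci the 95% interval of this difference stayed inside 2-fold either way, with a spread pooled over all 15 libraries, which for the members is wider on the low side. Fitted on the 6 cisplatin and control B libraries alone, the interval stayed inside 2-fold for 78% of the members and 83.9% of all loci. That fit also called 0 members (limma, smallest adjusted p over all loci = 0.105), with 19 members at an unadjusted p under 0.05 (9.5%), against 3.72% of all loci.

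The member with the smallest p among those with a higher mean in cisplatin was XLOC_002335 (scaffold00816, 66844 to 76115). It had 14.0, 6.81 and 12.7 FPKM in cisplatin and 5.61, 4.22 and 8.87 FPKM in control B, so the groups overlapped (log2 difference 0.75, SE 0.32; limma, adjusted p = 1). XLOC_012553 (scaffold02101, 18612 to 22229) had the smallest p in the other direction. Its values were 4.61, 9.44 and 7.46 FPKM in cisplatin and 13.2, 13.1 and 10.9 FPKM in control B, which did not overlap (log2 difference -0.76, SE 0.40; limma, adjusted p = 1).

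**Figure D3:**
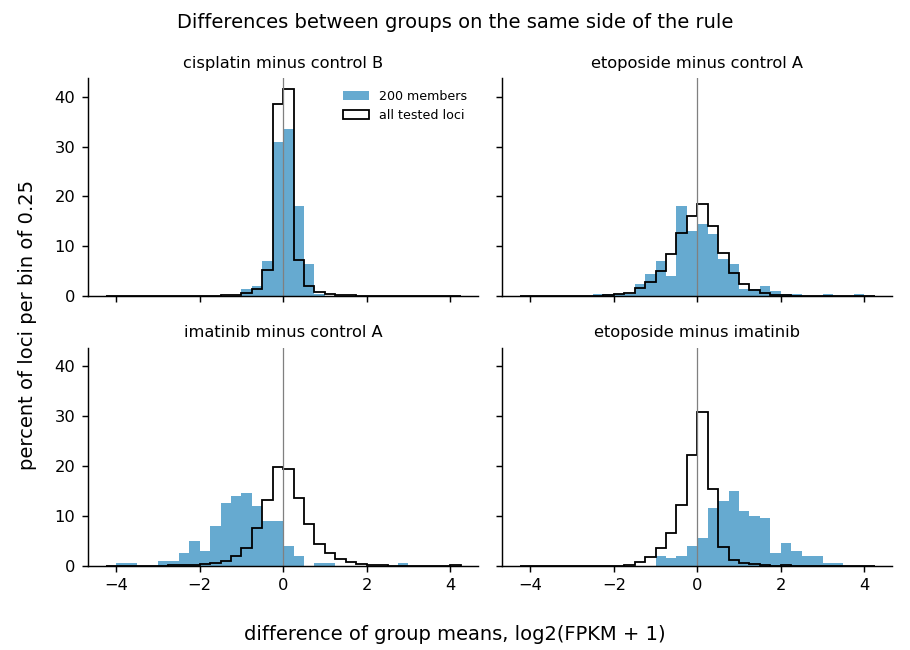
Differences of group means on the log2(FPKM + 1) scale for the 200 members (filled) and all 18098 tested loci (outline), as percent of loci per bin of 0.25, in 4 comparisons between groups on the same side of the rule. Members centre near 0 for cisplatin minus control B and etoposide minus control A, at a median of -0.94 for imatinib minus control A and of 0.89 for etoposide minus imatinib.

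Imatinib held the lowest values of the members. Its group mean was the lowest of the 3 low-side groups at 171 of the 200 members and at 28.2% of all tested loci. Against control A, 32 members were lower with imatinib (16.0%, against 4.9% of all tested loci) and 1 was higher (0.5%, against 4.14%; limma, adjusted p under 0.05). Together these were 16.5% of the members, against 9.03% of all tested loci. The members' median log2 difference was -0.94, where that of all tested loci was 0.01, and 185 of 200 had a lower mean with imatinib. The imatinib libraries lay wholly below those of control A for 66 members and wholly above for 2, against 12.6% and 11.7% of all loci. A low level in any low-side group, in control A as much as with imatinib, helps a locus to a large difference from the high side. The rule and this comparison are thus not wholly separate. When 200 loci were chosen by the same rule against the 3 etoposide libraries alone, 104 of them members, 27 were lower and 1 higher with imatinib than in control A. Among the other 1824 loci that did not overlap between the sides, 4.0% were lower with imatinib and 1.92% higher.

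XLOC_005542 (scaffold01203, 18534 to 19216) measured 25.4, 31.9 and 5.56 FPKM with imatinib and 103, 180 and 124 FPKM in control A. All 3 imatinib libraries were below control A, by 7.46-fold on the log2(FPKM + 1) scale (log2 difference -2.90, SE 0.54; limma, adjusted p = 0.0149). XLOC_010363 (scaffold01829, 88260 to 89477) had 159, 7.65 and 4.87 FPKM with imatinib and 402, 426 and 160.5 FPKM in control A, so imatinib 1 came close to control A 3 (log2 difference -3.91, SE 1.04; limma, adjusted p = 0.0382). The single member that rose was XLOC_005532, described above, with a log2 difference of 2.97 (SE 0.81; limma, adjusted p = 0.0410).

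These calls rested on a few libraries. The 33 members called for imatinib against control A became 4 without imatinib 2, 1 without imatinib 3 and 2 without control A 2. They became 0 when imatinib and control A were fitted alone. Without imatinib 1, control A 1 and control A 3 in turn, they were 26, 46 and 29. Over all tested loci, the 1635 called became 53 without imatinib 2 and 21 without imatinib 3, and also fell without control A 2. They became 2 in the fit alone. Without imatinib 1, control A 1 and control A 3 in turn, they were 1531, 2470 and 2672. The falls were thus not confined to the members. The members' median difference stayed between -1.23 and -0.73 with any of the 6 libraries left out. XLOC_005542 lost the call without imatinib 3 or control A 2 (limma, adjusted p = 0.0537 and 0.0604). XLOC_010363 lost it without imatinib 2, imatinib 3, control A 1 or control A 2 (limma, adjusted p from 0.0630 to 0.142), and XLOC_005532 whichever of the 6 was left out except control A 3 (limma, adjusted p from 0.0568 to 0.154). XLOC_005532 also lost it with a pseudocount of 0.1 FPKM and with library weights (limma, adjusted p = 0.0518 and 0.0551). In the fit of imatinib and control A alone, these loci had adjusted p of 0.213 to 0.227 (limma), with the same differences. At an unadjusted p under 0.05, that fit had 72 members (36%) in either direction, against 16.5% of all loci (limma). With all 15 libraries the shares were 44.5% and 27.6%.

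The members showed no shared direction with etoposide against control A, but the intervals were wide. With the spread pooled over all libraries, the interval of the difference stayed inside 2-fold for 11.5% of members and 52.1% of all loci. It did so for 6% and 39.0% with these groups fitted alone. The members' median SD was 0.80 in etoposide and 0.77 in control A, against 0.29 and 0.38 for all tested loci. A lower share of calls among members is thus no sign of a smaller change. Against control A, 6 members were higher and 8 lower with etoposide (limma, adjusted p under 0.05), 3.0% and 4.0% of the members, against 7.63% and 7.82% of all tested loci and, together, 7.0% against 15.5%. At an unadjusted p under 0.05, 16 were higher and 19 lower, 35 in all, against 17.2%, 16.9% and 34.1% of all tested loci (the members' shares were 8.0%, 9.5% and 17.5%). The median log2 difference was -0.02 for the members and 0.02 for all tested loci, and the etoposide libraries lay wholly above control A for 9 members and wholly below for 9 (4.5% each), against 12.8% and 12.5% of all loci. With 200 loci chosen against imatinib alone, 155 of them members, 7 were higher and 2 lower.

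The 2 members with the largest rise lie side by side on scaffold01203. XLOC_005532 rose by 3.93 on the log2 scale with etoposide against control A (SE 0.81; limma, adjusted p = 0.0189). XLOC_005533 (scaffold01203, 6934 to 7669) measured 58.0, 36.1 and 17.6 FPKM with etoposide and 3.63, 2.39 and 3.85 FPKM in control A (log2 difference 3.02, SE 0.62; limma, adjusted p = 0.0187). It had 253, 208 and 224 FPKM in cisplatin, 263, 189 and 272 FPKM in control B, and 2.70, 29.5 and 4.62 FPKM with imatinib, where only imatinib 2 came near etoposide. XLOC_001487 (scaffold00597, 14275 to 17576) had 116, 42.8 and 20.6 FPKM with etoposide and 132, 327 and 126 FPKM in control A. That is a log2 difference of -1.88 (SE 0.57; limma, adjusted p = 0.0445), with etoposide 1 close to the lower control A libraries. XLOC_000325 (scaffold00109, 35561 to 42550) had 2.08, 0.645 and 0.522 FPKM with etoposide and 2.73, 9.50 and 2.24 FPKM in control A (log2 difference -1.35, SE 0.42; limma, adjusted p = 0.0475). Here levels were low, and etoposide 1 came close to control A 3.

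The 14 members called for etoposide became 0 without etoposide 3 or without control A 2, 5 without etoposide 2, 31 without etoposide 1 and 24 without control A 3, and 0 in a fit of etoposide and control A alone. Over all tested loci, the 2797 called became 7 without etoposide 3, 11 without control A 2 and 2940 without etoposide 2. They became 2600 without etoposide 1, 4051 without control A 3 and 1 in the fit alone. The 31 members without etoposide 1 were 3 higher and 28 lower, and the 24 without control A 3 were 16 higher and 8 lower, so the balance of directions turned on single libraries. The calls over all loci were 1209 higher and 1391 lower without etoposide 1, and 2288 higher and 1763 lower without control A 3. XLOC_005532 and XLOC_005533 lost the call without etoposide 3 (limma, adjusted p = 0.0654 for each) or control A 2 (limma, adjusted p = 0.0591 and 0.0721). XLOC_001487 and XLOC_000325 lost it without etoposide 2, etoposide 3 or control A 2 (limma, adjusted p from 0.0809 to 0.190). After quantile normalization XLOC_001487 no longer passed (limma, adjusted p = 0.0558), nor did XLOC_000325 after median centring (limma, adjusted p = 0.0514). In the fit of etoposide and control A alone, these 4 loci had adjusted p of 0.285 to 0.293 (limma), and with library weights 0.0769 to 0.171 (limma).

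Set against each other, etoposide and imatinib differed in 0 members and in 0% of all tested loci (limma, smallest adjusted p = 0.158). At an unadjusted p under 0.05, 80 members (40.0%) were higher with etoposide, against 6.02% of all loci, and 0 were lower, against 6.63%. In either direction the share of all loci was 12.6%. With etoposide and imatinib fitted alone, 53 members (26.5%) had an unadjusted p under 0.05 in either direction, against 9.11% of all loci (limma). The etoposide libraries lay wholly above those of imatinib for 45 members and wholly below for 1, together 23.0%, against 10% and 7.96% of all loci and 18% together. The members' median log2 difference was 0.89, where that of all tested loci was 0.02, and 181 of 200 had a higher mean with etoposide. Without etoposide 1 the members' median was 0.46, and for 200 loci chosen by the same rule against control A alone it was 0.83, with 0 called. The concentrations differed, so this compares the groups and not equal doses. The smallest p over all tested loci belonged to a member, XLOC_001232 (scaffold00465, 6541 to 8161). It had 15.4, 13.5 and 12.4 FPKM with etoposide and 2.57, 3.78 and 1.40 FPKM with imatinib, which did not overlap, and 7.18, 8.34 and 12.2 FPKM in control A (log2 difference of etoposide and imatinib 2.09, SE 0.29; limma, adjusted p = 0.158). XLOC_000325 had the smallest p among members with a lower mean with etoposide than with imatinib, at a log2 difference of -0.84 (SE 0.42; limma, adjusted p = 0.426).

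**Figure D4:**
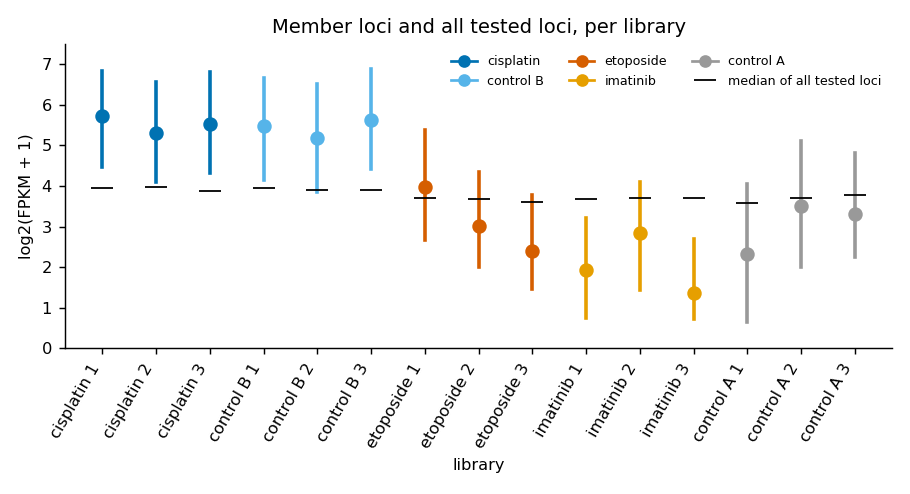
Median of the 200 members (points, with the quartiles as lines) and median of all tested loci (black dashes) in each library, as log2(FPKM + 1). The members' medians lie at 5.18 to 5.72 on the high side and at 1.37 to 3.97 on the low side, while those of all tested loci lie between 3.59 and 3.97.

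On the low side the members also varied strongly between libraries of 1 group. Their median SD within a group was 0.80 in etoposide, 0.68 in imatinib and 0.77 in control A on the log2 scale, against 0.29, 0.23 and 0.38 for all tested loci. On the high side it was 0.26 in cisplatin and 0.27 in control B, against 0.15 and 0.16. Relative to each member's own low-side mean, the median member was highest in etoposide 1, by 1.10 on the log2 scale, and in control A 2 and 3, by 0.71 and 0.56. It was lowest in imatinib 3, at -1.12, and in imatinib 1, at -0.62, while etoposide 3 and control A 1 were at -0.42 and -0.34. The same medians over all tested loci lay between -0.02 and 0.04.

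Single members followed this profile to different degrees. Across the 9 low-side libraries, the correlation of a member with the median profile of the other members had a median of 0.76, was over 0.5 for 167 members and below 0 for 7. For the other tested loci its median was 0.01, with 13.3% over 0.5. Across the 6 high-side libraries, where the members varied less, the median was 0.71, with 121 members over 0.5 and 37 below 0, and for the other loci -0.01. These are descriptions over few libraries that share their scaling, and members chosen by the same libraries are not independent. Deviations were taken from the mean over all libraries of a side. The low-side profile thus also holds differences between groups, such as the low level with imatinib, and not only those between replicates. Etoposide 1 was the highest low-side library for 95 members and control A 2 for 52, while the lowest was imatinib 3 for 82 and control A 1 for 46. On the high side the lowest library was control B 2 for 72 members and cisplatin 2 for 67. Same-numbered cisplatin and control B libraries deviated together across the members with correlations of 0.05, 0.61 and 0.25.

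The members lay close to each other in the genome, which the rule did not use. They were spread over 118 of the 2426 scaffolds with eligible loci, and 122 of them shared a scaffold with another member. For 94 members (47.0%), the next eligible locus on 1 side or both was also a member, whereas 1.54% of the 16866 eligible loci that are no member had a member next to them. These neighbours made up 53 pairs, of which 6 were listed with the same interval and may share reads. In the other 47 pairs the median distance between the intervals was 664 bp, and 42 lay within 2000 bp or overlapped. Farther along a scaffold the share fell: members held 28.3% of the positions next to a member, 12.4% of those 2 loci away and 6.15% of those 10 loci away.

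Loci beside the members leaned the same way. Of the 259 loci next to a member that were not members themselves, 74 (28.6%) did not overlap between the sides and were higher on the high side, against 10.8% of all eligible loci that are no member. Their median log2 difference was 0.60. These values come from the contrast the rule used and were not tested.

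The 5 scaffolds with at least 5 members held 32 of the 200; they were picked after their values were seen. On scaffold01251, 8 of the 43 eligible loci were members, all between 16144 and 37901, where 11 eligible loci lie. Of these members, 4 were listed with an interval that another locus shares, so their reads may be shared. Their median level was 185, 117 and 166 FPKM in cisplatin and 169, 117 and 191 FPKM in control B. It was 50.7, 22.8 and 7.77 FPKM in etoposide, 3.44, 15.7 and 1.67 FPKM in imatinib, and 4.77, 32.1 and 26.6 FPKM in control A. Etoposide 1 was the highest low-side library there and imatinib 3 the lowest, as in the members at large. The other 35 loci of this scaffold had a median log2 difference of 0.33, against 3.44 for the 8 members.

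Scaffold01591 also had 8 members, among 30 eligible loci, in a stretch from 29649 to 78702 that ends with the last eligible locus. A further 8 loci of this scaffold did not overlap between the sides without ranking among the 200. Scaffold01209 had 6 members among 48 loci, spread over 167 kb. Scaffold03044 had 5 among 16, the last 4 in a row.

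The 5 members of scaffold01235, between 45429 and 65901, had another low-side pattern, and 3 of them were listed with an interval that another locus shares. Their median was 65.3, 50.9 and 39.0 FPKM in cisplatin and 44.1, 60.2 and 83.3 FPKM in control B. On the low side it was 3.37, 3.43 and 4.46 FPKM in etoposide, 4.47, 6.39 and 4.66 FPKM in imatinib, and 23.0, 4.19 and 3.92 FPKM in control A. The etoposide and imatinib libraries were level with each other here, and control A 1 alone stood above them, in contrast to scaffold01251.

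**Figure D5:**
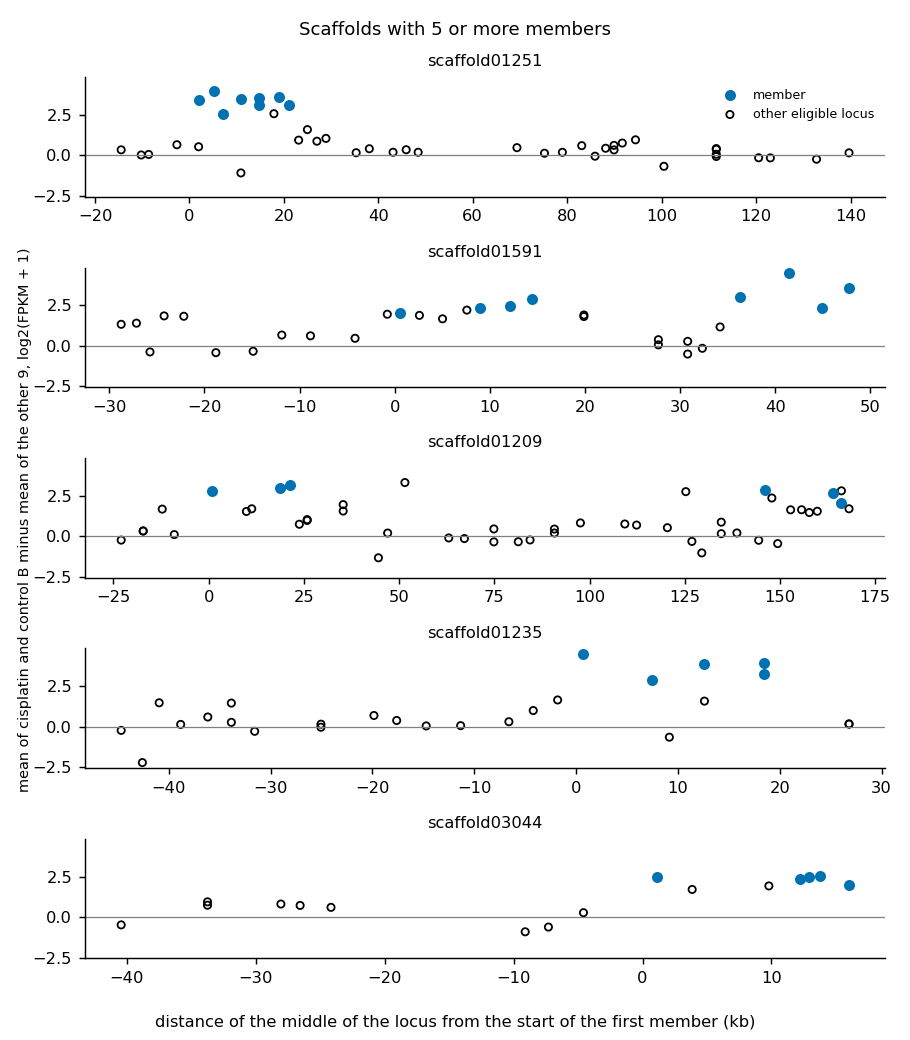
Difference between the mean of the 6 high-side and the mean of the 9 low-side libraries on the log2(FPKM + 1) scale (vertical) for each eligible locus of the 5 scaffolds with at least 5 members, by distance in kb from the start of the first member (horizontal). Members (filled) lie in 1 stretch on scaffold01251 and scaffold01235 and at both ends of the scaffold on scaffold01209, and most other loci (open) lie lower.

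A single transcript was listed for 75% of the members, against 60.9% of all eligible loci, and the median span was 1956 bp against 2264 bp. The 200 loci chosen by the rule with its sides turned round lay on the same side of the eligible loci, with 69.5% and 1762 bp, and the median number of transcripts was 1 in each of these sets. An interval shared with another locus, where the authors' assignment of reads is uncertain, was listed for 24.5% of members and 31.8% of eligible loci. Among the 50 members with several transcripts, every transcript had a higher mean on the high side for 37, and the leading transcript differed between the sides for 12. The transcript that led on the high side made up a median of 82.4% of the locus there and 69.1% on the low side. How FPKM are split between transcripts depends on the assembly, and these shares were not tested.

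In the values as deposited, the high-side libraries lay wholly above the others at 2024 eligible loci and wholly below them at 441 (2.58%), after quantile normalization at 1077 and 777, and after median centring at 702 and 1031, so median centring turned the balance and quantile normalization narrowed it. Of the 200 members, 183 remained without overlap after median centring and 192 after quantile normalization. The members' median difference was 2.46, and that of the 200 loci chosen by the rule with its sides turned round was -3.09. A neighbour of their own kind stood beside 47.0% of the members and 33.5% of those loci, and the longest run in a row was 4 members, against 7 of those loci. The difference between these lists was not tested.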

How the data were processed

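Strand-marking poly(A) libraries were made from 320 ng of RNA per the labels' protocols. The deposited table, made by the authors, holds FPKM for 33982 assembled transcripts in each library. Tools listed in the submitters' processing notes are Cuffdiff, Cufflinks 2.2.1, Bowtie2 2.1, TopHat2 2.0, Trim Galore and CASAVA 1.8.0. Settings, and whether libraries were scaled to each other, were not given in the sources used here. FPKM were summed per locus with Python 3.11.15 and used as log2(FPKM + 1), on which a fold understates the change of low loci. The 18098 loci averaging 1 FPKM or more were tested in R 4.3.3 with limma 3.58.1 (5 group means over all 15 libraries, mean-variance trend, two-sided, Benjamini-Hochberg adjustment over all tested loci, threshold 0.05). The procedure was tested on simulated data in which all groups had the same spread at a locus, unlike the groups here. A span is end minus start as listed. Depth is unknown, so no counting error is given.

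Named loci were the 2 with the largest difference of the rule, and for each tested comparison up to 2 members per direction with the largest change among those called without overlap, or else the smallest p. Members and rules were chosen with earlier results of these data known. Across all loci, cisplatin and control B libraries with the same number deviated together (correlations of 0.24, 0.21 and 0.50), so these were also fitted as pairs; the pairing comes from the data, not the labels. Alternatives were another pseudocount, no filter, 2 scalings, fewer libraries, library weights and a replicate block. Added after seeing the data were intervals from, and the paired fit of, the 6 cisplatin and control B libraries, fits without control A 1, counts without overlap at other minimum spans, and members chosen against 1 low-side group.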

Additional observations from a re-analysis of the deposited data

How the results depend on the processing

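Choosing the members again kept 169 to 200 of the 200 under another pseudocount, no filter, both scalings, no minimum span or the most abundant transcript alone, but 98 with a minimum span of 2000 bp, which removes shorter members; leaving out 1 library kept 167 (control A 2) to 196. Loci without overlap were 1077 after quantile normalization and 702 after median centring, against 2024, and 2049 to 2595 with 1 library left out. Leaving out 1 library cannot create an overlap between the sides, so it could change the members only through the ranking. For cisplatin against control B, 0 members were called under every alternative run, the replicate block and the paired fit of the 6 libraries included, and 0 of all loci except 1 without cisplatin 3; leaving out 1 library moved the members' median between -0.04 and 0.18. For etoposide against control A, 2797 loci and 14 members became 1 and 0 in the fit of these groups alone, 1 and 0 with library weights, and 2216 and 7 with the replicate block; members chosen against imatinib alone gave 9. With 1 library left out, the counts ran from 7 to 4051 loci and from 0 to 31 members, and the members' median from -0.40 to 0.30. For imatinib against control A, 1635 loci and 33 members became 2 and 0 in the fit of these groups alone, and 1307 and 20 with library weights; with 1 library left out they ran from 21 to 2672 loci and from 1 to 46 members. For etoposide against imatinib, 0 loci were called under every alternative run, and the members' median ran from 0.46 to 1.26 with 1 library left out. The cause of these changes was not tested. Whether replicate numbers pair libraries was not settled, since differently numbered libraries were not compared. In the 3 comparisons other than cisplatin against control B, the correlations across all loci ran from -0.19 to 0.35. Across the members alone they were 0.19, 0.22 and 0.35 for etoposide against imatinib. For imatinib against control A they were 0.58, 0.55 and -0.08, and for etoposide against control A -0.08, 0.22 and -0.26. With the block, 29 members were called for imatinib against control A, and among the named loci XLOC_000325 lost its call for etoposide and XLOC_005532 its call for imatinib (limma, adjusted p = 0.0638 and 0.0532); the block changed no other call of a named locus.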
